A study of Mus musculus with 2 samples.

Results

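Coenzyme Q (ubiquinone) biosynthesis genes were examined in the hearts of mice that lack Med1 in cardiomyocytes. The 10 genes Pdss1, Pdss2, Coq2, Coq3, Coq4, Coq5, Coq6, Coq7, Coq9 and Coq10a were taken by gene symbol from 22882 symbols in each library. All 10 had a row in both libraries, and each stood on 1 row. Med1 is the subunit of Mediator, the bridge between transcription factors and RNA polymerase II, that nuclear receptors bind. The control animals were Med1fl/fl mice, whose Med1 gene is flanked by loxP sites on both alleles. The csMed1-/- animals carried the same floxed alleles together with an α-MyHC-Cre transgene, so Med1 is deleted, from late gestation on, where the α-myosin heavy chain promoter is active, and other heart cells keep it. All mice were on the C57BL6/J background, 23 days old and of mixed sex, and received no treatment. RNA of 5 hearts was pooled for each genotype and sequenced as 1 library, so there are no replicates. No test that allows for variation between animals could be made, and every ratio below is a description of 2 libraries.

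Coenzyme Q is the lipid that carries electrons from complexes I and II, and from several other dehydrogenases, to complex III of the mitochondrial respiratory chain. It is assembled in the inner mitochondrial membrane from a benzene ring and a long isoprenoid side chain. The side chain is built by a synthase made of the Pdss1 and Pdss2 proteins and joined to the ring by Coq2, after which Coq3, Coq5, Coq6 and Coq7 add methyl and hydroxyl groups with the help of Coq4, Coq9 and the Coq8 proteins. Heart muscle is rich in this lipid, and inherited defects of its synthesis can cause cardiomyopathy.

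Expression is given as FPKM, fragments per kilobase of transcript scaled to library size, which allows levels of different genes to be set side by side. How the libraries were scaled is not given in the sources used here. A gene was compared when neither value was 0 and the larger reached 1 FPKM, which left 10489 genes. All values summed to 780366 FPKM for Med1fl/fl and 716365 FPKM for csMed1-/-. Read numbers are unknown. Among 2461 rows at most 0.15 FPKM but above 0 in both libraries, the most frequent csMed1-/- to control ratio was 0.719 (83 rows). If those rows hold equal read numbers and scaling used mapped fragments alone, csMed1-/- was sequenced 1.39 times as deeply as control. Med1 itself was at 3.38 FPKM in Med1fl/fl and 0.412 FPKM in csMed1-/- heart, 12.2% of control, in the direction of the labels.

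The upstream sequences of Pdss1, Coq7, Coq10a and Coq4 are shown because they hold AGGTCA, the core motif of many nuclear receptors, the class of factors that Med1 serves. They include the pair of genes with the lowest csMed1-/- to Med1fl/fl ratios and a gene with one of the highest. Promoter windows of RefSeq (GRCm38.p6, the mm10 assembly), from 250 bases before to 50 bases after a start, were found for 9 of the 10 genes, with 11 windows in all. Coq5 had no entry. AGGTCA on either strand was found in 4 of the 11 windows, against 16.3% of all 32851 windows. The sequences run 5′ to 3′ on the strand of the gene and end at the base before the start. Capitals mark the motif, or its reverse complement, with the adjoining A where the longer word AAGGTCA is present. Pdss1 is at chr2:22895272-22895521 (plus strand), Coq7 at chr7:118533357-118533606 (minus strand), Coq10a at chr10:128370038-128370287 (minus strand, the farther upstream of its 2 starts) and Coq4 at chr2:29787393-29787492 (plus strand, the nearest 100 bases).
Pdss1: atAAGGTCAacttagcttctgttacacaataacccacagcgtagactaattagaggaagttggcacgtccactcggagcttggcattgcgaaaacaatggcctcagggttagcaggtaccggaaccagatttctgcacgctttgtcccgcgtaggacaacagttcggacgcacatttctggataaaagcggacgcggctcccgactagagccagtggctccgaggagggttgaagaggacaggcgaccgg
Coq7: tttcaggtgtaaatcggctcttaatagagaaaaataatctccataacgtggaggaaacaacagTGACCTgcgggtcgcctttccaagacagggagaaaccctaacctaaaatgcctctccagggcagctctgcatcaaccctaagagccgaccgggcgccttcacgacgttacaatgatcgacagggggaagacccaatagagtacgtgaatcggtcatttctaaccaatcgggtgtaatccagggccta
Coq10a: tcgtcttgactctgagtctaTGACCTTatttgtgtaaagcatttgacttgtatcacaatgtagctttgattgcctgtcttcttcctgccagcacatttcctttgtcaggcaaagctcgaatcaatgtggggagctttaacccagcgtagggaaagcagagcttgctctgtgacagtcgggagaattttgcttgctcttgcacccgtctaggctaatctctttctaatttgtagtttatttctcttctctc
Coq4: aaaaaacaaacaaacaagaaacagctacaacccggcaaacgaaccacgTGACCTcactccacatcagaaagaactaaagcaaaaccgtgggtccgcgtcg

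The motif lay at -247 to -242 from the start in Pdss1, at -187 to -182 in Coq7, at -230 to -225 in Coq10a and at -52 to -47 in Coq4. AAGGTCA, the form preferred by estrogen-related receptors, was found in the windows of Pdss1 and the farther upstream Coq10a start, and in 4.72% of all windows. The other Coq10a window, which covers the annotated start of the gene at 128368997, held neither AGGTCA nor AAGGTCA. Both AAGGTCA and the still longer TCAAGGTCA contain AGGTCA. TCAAGGTCA (0.423% of all windows) was in none of the 11 windows, nor were 2 copies of AGGTCA in a row with 1 base between them, the DR-1 element bound by PPAR with RXR (0.0396% of all windows). CCAAT, the site of factor NF-Y, was in the windows of Coq6 and Coq7 and in 37.4% of all windows. AAGATGGCG, the site of YY1, was in the Coq9 window, after the start, and in 1.40% of all windows. The palindromic NRF1 site was in none of the 11 windows and in 0.971% of all windows, and its form with any base in place of the A was in 1 window of Coq3 and in 4.60% of all windows. These are matches of letters on both strands and say nothing of binding. The motifs were chosen after the expression values were seen.

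All 10 genes were lower in csMed1-/- than in Med1fl/fl heart, where 53.2% of all genes compared were lower. In 6 of the 10 the difference was more than 2-fold (18.0% of all genes compared were lower by that much), and in none was there an increase of more than 2-fold (13.6% of all genes compared). The median log2 ratio of csMed1-/- to Med1fl/fl was -1.44 over the 10 genes and -0.07 over all genes compared. The 10 genes summed to 1135 FPKM in control and to 476.3 FPKM, a ratio of 0.420, without cardiomyocyte Med1. In bulk heart RNA, fewer cardiomyocytes and less RNA of a gene per cardiomyocyte cannot be told apart. Markers of cardiomyocytes were lower too (median log2 ratio -1.33 over 8 genes). These include Pln (-3.78) and Ryr2 (-3.28), which the study lists among genes down-regulated in csMed1-/- heart. The other markers compared ran from Tnni3 (-2.74) to Ttn (-0.52). The 6 coenzyme Q genes past 2-fold were Pdss1, Coq7, Coq5, Pdss2, Coq9 and Coq10a, and the 4 within 2-fold were Coq3, Coq2, Coq4 and Coq6.

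**Figure D1:**
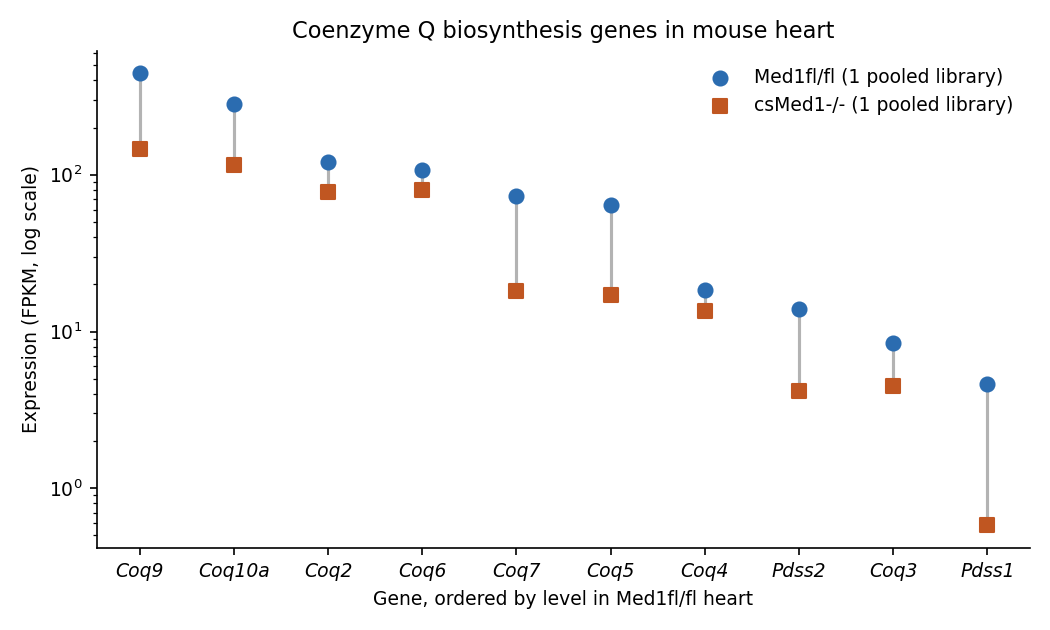
Expression of the 10 coenzyme Q genes in FPKM (log scale) in the pooled Med1fl/fl library (circles) and the pooled csMed1-/- library (squares), with genes ordered by their control level. Every square lies below its circle, and the gap is widest for Pdss1 (4.59 and 0.581 FPKM) and narrowest for Coq6 (107.8 and 79.5 FPKM).

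Both subunits of the side chain synthase were lower by more than 2-fold. Pdss1 was at 4.59 FPKM in control heart and 0.581 FPKM in csMed1-/- heart, 7.90-fold lower (log2 ratio -2.98). Only 1.87% of all genes compared had a lower ratio. Its partner subunit Pdss2 was at 13.98 and 4.18 FPKM, 3.35-fold lower (log2 ratio -1.74). Pdss1 was the least abundant of the 10 genes in both libraries, and with 1 FPKM added to both values its log2 ratio became -1.82, above those of Coq7 (-1.96) and Coq5 (-1.86) on the same scale. Its transcript also shared 17.1% of its 50-base words, the length of the reads, with the overlapping opposite-strand genes Abi1 and A130006I12Rik. Whether the authors' counting used the strand is not stated in the sources used here. Abi1 was at 1.29 and 1.56 FPKM (log2 ratio 0.27), a difference in the opposite direction.

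Coq2, the membrane enzyme that joins the side chain to the ring, differed much less. It was at 120.0 FPKM in control heart and 77.8 FPKM in csMed1-/- heart, 64.8% of control (log2 ratio -0.63). Of its 50-base words, 12.0% were also found in the processed pseudogene Gm6728.

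The methyltransferases and the hydroxylases each had a gene on either side of 2-fold. Coq5, which methylates a ring carbon, was at 64.2 and 17.0 FPKM, 3.78-fold lower (log2 ratio -1.92). Coq3, which methylates ring oxygens, was at 8.46 and 4.50 FPKM, 1.88-fold lower (log2 ratio -0.91), the nearest to 2-fold among the 4 genes within it. Coq7, the di-iron hydroxylase of a late step, was at 73.4 and 18.1 FPKM, 4.04-fold lower (log2 ratio -2.02). Coq6, the flavin-dependent hydroxylase of an earlier step, was at 107.8 and 79.5 FPKM, or 73.7% of control (log2 ratio -0.44). Within a library, Coq6 stood at 1.47 times Coq7 in control and at 4.38 times Coq7 in csMed1-/- heart. Coq5 stood at 7.59 times Coq3 in control and at 3.78 times Coq3 in csMed1-/- heart.

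The accessory genes held the most abundant transcripts of the pathway. Coq9, a lipid-binding partner of Coq7, was at 443.4 FPKM in control heart and 145.7 FPKM in csMed1-/- heart, 3.04-fold lower (log2 ratio -1.61). Coq10a, which binds the finished lipid and is needed for its function in the respiratory chain, was at 280.6 and 115.4 FPKM, 2.43-fold lower (log2 ratio -1.28) and the nearest to 2-fold among the 6 genes past it. Coq4, needed for the assembly of the biosynthetic complex, was at 18.5 and 13.6 FPKM, or 73.7% of control (log2 ratio -0.44). Coq9 and Coq7, whose proteins work together, had a ratio of levels of 6.04 in control and 8.03 in csMed1-/- heart.

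The order of the 10 levels was much the same in both libraries. Coq9 and Coq10a were the highest, with 39.1% and 24.7% of the summed FPKM of the 10 genes in control and 30.6% and 24.2% in csMed1-/- heart. Next came Coq2 and Coq6, which stood 1.11-fold apart in control and changed places at 1.02-fold apart in csMed1-/- heart. Coq2 held 10.6% of the sum in control and 16.3% in csMed1-/- heart, and Coq6 held 9.50% and 16.7%. Coq7, Coq5 and Coq4 followed in that order in both libraries. Pdss2 was 1.65 times Coq3 in control, whereas Coq3 was 1.08 times Pdss2 in csMed1-/- heart. The highest gene stood 96.5-fold above the lowest in control and 250.8-fold in csMed1-/- heart. With no replicates, the order of neighbouring genes cannot be set against any spread.

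**Figure D2:**
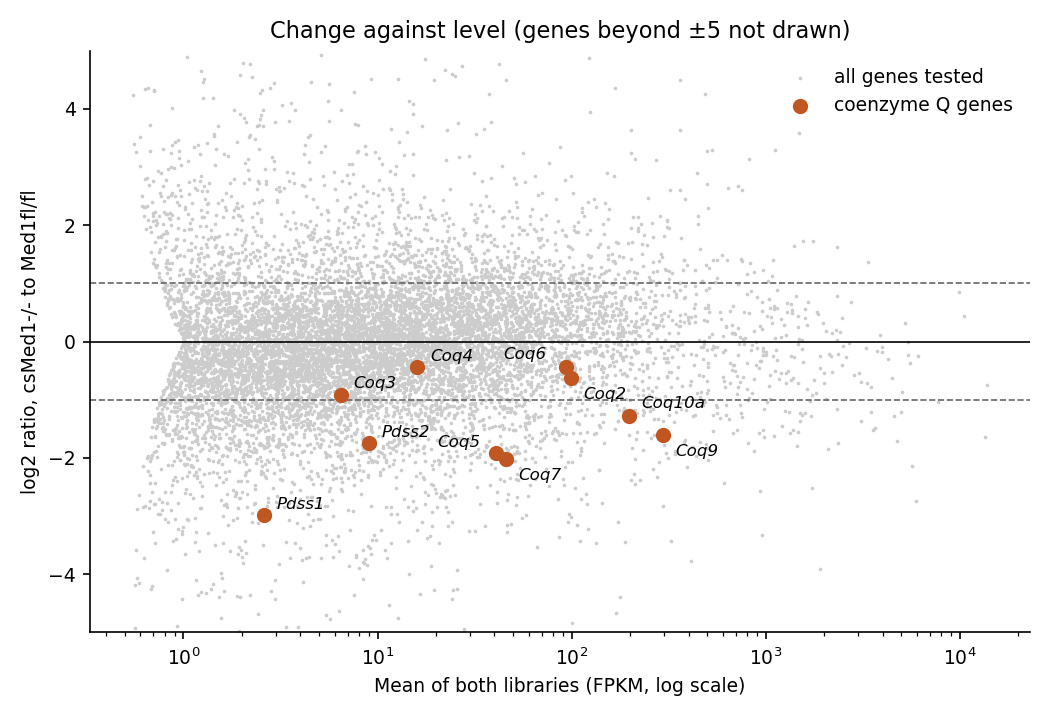
Log2 ratio of csMed1-/- to Med1fl/fl FPKM against the mean FPKM of both libraries (log scale) for the genes compared (grey, those beyond a log2 ratio of 5 in either direction not drawn) and the 10 coenzyme Q genes (orange), with dashed lines at 2-fold. The coenzyme Q genes span from 2.59 FPKM (Pdss1) to 294.5 FPKM (Coq9) and all lie below 0.

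The 10 genes were also set beside genes of like level, transcript length and base composition. Among genes of like mean level (the same of 10 bins), the median log2 ratio lay between -0.21 and 0.15 in the bins that held the 10 genes, and 14.1% to 19.9% of genes there were lower by more than 2-fold. The reference transcripts of the 10 genes ran from 914 bases (Coq7) to 2651 bases (Coq3), and the bins of like length had medians between -0.02 and 0.08. GC content of the transcripts ran from 44.1% (Coq3) to 56.6% (Coq10a), and the bins of like GC content had medians between -0.33 and 0.19. The same number of genes, 6, was lower by more than 2-fold after centring on each of these bins. After centring, 16.1% (level), 16.7% (length) and 15.9% (GC content) of all genes so centred were lower by that much.

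In the GENCODE M21 annotation of GRCm38 the 10 genes lie on 7 chromosomes. Pdss1 is on chromosome 2 (22895522 to 22940266, plus strand, 11 exons in the reference transcript) and Coq4 on the same chromosome (29787493 to 29797935, plus strand, 7 exons). Pdss2 (43221486 to 43464882, plus strand, 8 exons) and Coq10a (128363100 to 128368997, minus strand, 5 exons) are on chromosome 10. Coq2 (100654723 to 100675140, minus strand, 7 exons) and Coq5 (115279666 to 115296972, plus strand, 7 exons) are on chromosome 5. Coq3 is on chromosome 4 (21879673 to 21912162, plus strand, 7 exons) and Coq6 on chromosome 12 (84361657 to 84373796, plus strand, 13 exons). Coq7 is on chromosome 7 (118509659 to 118533356, minus strand, 6 exons) and Coq9 on chromosome 8 (94838321 to 94854895, plus strand, 9 exons).

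Coq9 and Coq6 each share a start region with a gene read in the opposite direction. The log2 ratios within each pair differed in size, and each was below 0. The annotated starts of Coq9 and Ciapin1, a gene of cytosolic iron-sulfur cluster assembly, are 37 bases apart. Ciapin1 was at 31.1 FPKM in control heart and 25.1 FPKM in csMed1-/- heart (log2 ratio -0.31), while Coq9 had a log2 ratio of -1.61. The starts of Coq6 and Fam161b are 176 bases apart. Fam161b was at 1.76 and 0.459 FPKM (log2 ratio -1.94), while Coq6 had a log2 ratio of -0.44. The Fam161b values are low and rest on few reads of unknown number. Coq6 and Fam161b transcripts share 4.57% of the 50-base words of Coq6. Coq4 overlaps Trub2, a pseudouridine synthase gene on the other strand, by 165 bases of exon, and Trub2 was at 19.1 and 20.1 FPKM (log2 ratio 0.07).

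Other genes of the pathway and genes related to it were split in direction. The list includes further ADCK family members and ferredoxin genes, whose part in coenzyme Q synthesis was not examined here. Of 10 listed, 9 were compared, 4 were lower by more than 2-fold and 1 was higher by more than 2-fold, with a median log2 ratio of -0.31. Fdx2, the remaining gene, stands under its older symbol Fdx1l on a row joined with Raver1 (79.2 and 95.96 FPKM), so its own level was not analysed here. Adck3 (now Coq8a), an atypical kinase that supports the biosynthetic complex, was at 327.1 FPKM in control heart and 103.0 FPKM in csMed1-/- heart (log2 ratio -1.67). Adck4 (now Coq8b), its paralog, was at 7.47 and 21.4 FPKM (log2 ratio 1.52), the single gene of the 9 more than 2-fold higher. Of the 50-base words of Adck4, 14.4% are shared with Gm15567 and Gm44641, which overlap it. Adck3 thus stood at 43.8 times Adck4 in control and at 4.82 times Adck4 in csMed1-/- heart. Together the paralogs reached 334.6 FPKM in control against 124.4 FPKM without cardiomyocyte Med1, a ratio of 0.372. Adck3 shares 7.97% of its 50-base words with Cdc42bpa.

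Coq10b, the paralog of Coq10a, stood on 2 rows. The first was at 14.2 FPKM in control heart and 8.62 FPKM in csMed1-/- heart, and the second at 0.284 and 3.06 FPKM. The summed log2 ratio was -0.31, and Coq10a stood at 19.4 times the summed Coq10b in control and 9.87 times in csMed1-/- heart. Against the first row alone these figures were 19.8 and 13.4. Coq10b shares 12.6% of its 50-base words with E330011M16Rik and the pseudogene Gm4899.

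**Figure D3:**
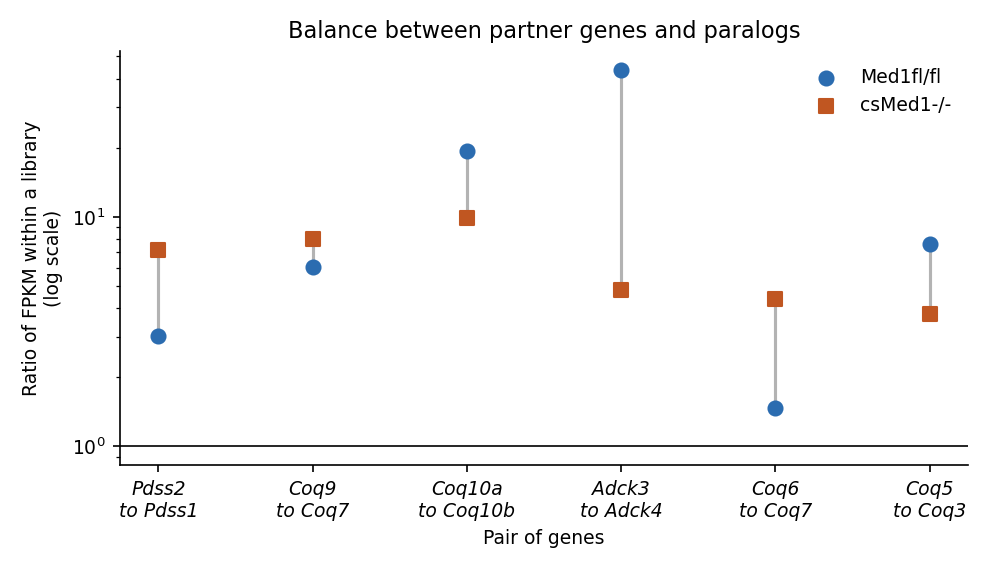
Ratio of FPKM between 2 genes of a pair within each library (log scale), for Med1fl/fl (circles) and csMed1-/- (squares). Adck3 over Adck4 stood at 43.8 (circle) and 4.82 (square), and the Pdss2 to Pdss1 ratio was 3.04 and 7.19.

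The other ADCK family members and the ferredoxin system were split. Adck1 was at 37.0 FPKM in control heart and 17.3 FPKM in csMed1-/- heart (log2 ratio -1.10). Adck2 was at 5.67 and 8.29 FPKM (log2 ratio 0.55), and Adck5 at 4.40 and 6.16 FPKM (log2 ratio 0.48). Fdx1, a mitochondrial ferredoxin, was at 64.1 and 23.9 FPKM (log2 ratio -1.43). Fdxr, the reductase that supplies ferredoxins with electrons, was at 8.25 and 11.5 FPKM (log2 ratio 0.47). Hpdl, which takes part in making the ring precursor, was at 12.3 and 3.40 FPKM (log2 ratio -1.86), the lowest of the 9.

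The mevalonate pathway, which supplies the isoprene units of the side chain, lay mostly on the other side of 0. Of 9 genes listed, 8 were compared, and Idi1 stayed under 1 FPKM in both libraries. None of the 8 differed by more than 2-fold, where 18.0% of all genes compared were lower and 13.6% higher by that much. Of the 8, 7 were higher and 1 was lower (53.2% of all genes compared were lower), and their median log2 ratio was 0.31. Their ratios were not centred within bins of GC content or level. The highest was Pmvk, phosphomevalonate kinase, at 9.95 FPKM in control heart and 17.3 FPKM in csMed1-/- heart (log2 ratio 0.80). The lowest was Hmgcs1, hydroxymethylglutaryl-CoA synthase, at 2.12 and 1.21 FPKM (log2 ratio -0.81).

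The enzymes that hand electrons to coenzyme Q were mostly lower. Of 12 listed, 11 were compared, 7 were lower by more than 2-fold and none was higher by as much, with a median log2 ratio of -1.52. Choldh was not analysed here. The lowest was Etfdh, which passes electrons from fatty acid oxidation to coenzyme Q, at 116.3 FPKM in control heart and 29.3 FPKM in csMed1-/- heart (log2 ratio -1.99). The highest was Aifm2, which reduces coenzyme Q outside mitochondria, at 18.6 FPKM in both libraries (log2 ratio 0.00, or -0.01 when scaled to the sum without the 100 highest genes). Core subunits of complex I had 5 of 7 genes lower by more than 2-fold and a median of -1.23, from Ndufs1 (-1.83) to Ndufv1 (-0.34). Nuclear subunits of complex III, which takes electrons from reduced coenzyme Q, had 4 of 9 and a median of -0.92, from Uqcrc1 (-1.26) to Uqcr10 (-0.07, or 0.00 when all genes are centred on their median).

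General mitochondrial genes (import, channel, chaperone, fusion and citrate synthase genes) had 11 of 15 lower by more than 2-fold and a median log2 ratio of -1.38. Their lowest was Cs, citrate synthase, at 1031 FPKM in control heart and 190.1 FPKM in csMed1-/- heart (log2 ratio -2.44), and their highest was Tomm22, an import receptor, at 141.0 and 126.4 FPKM (log2 ratio -0.16). Of the 10 coenzyme Q genes, 5 lay below this median and 5 above it, by log2 differences from -1.60 (Pdss1) to 0.94 (Coq6). None of the differences between lists was tested.

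**Figure D4:**
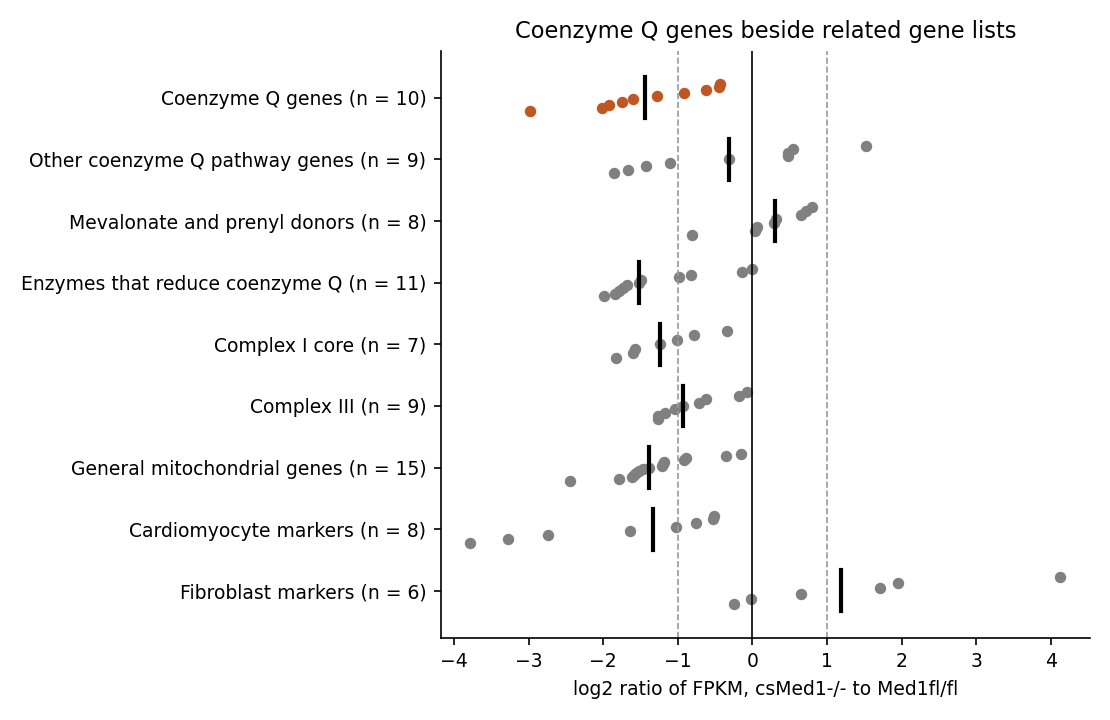
Log2 ratio of csMed1-/- to Med1fl/fl FPKM for each gene compared (points) and the median (black bars) in the coenzyme Q genes (orange), related gene lists and markers of cardiomyocytes and fibroblasts (grey), with dashed lines at 2-fold. The medians were -1.44 for the coenzyme Q genes, -1.38 for general mitochondrial genes and 0.31 for mevalonate pathway genes.

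Cardiomyocyte and endothelial markers were lower in csMed1-/- heart, like the coenzyme Q genes, while fibroblast markers were mostly higher and macrophage and smooth muscle markers were split. Of 10 cardiomyocyte markers, 8 were compared, 5 were more than 2-fold lower and the other 3 were lower by less, and their median log2 ratio was -1.33, from Pln (-3.78) to Ttn (-0.52). Their summed level was 52644 FPKM in control heart and 20550 FPKM in csMed1-/- heart. Pln and Ryr2 (-3.28) are among genes that the study lists as down-regulated in csMed1-/- heart. The other markers compared were Tnni3 (-2.74), Myl2 (-1.64), Tnnt2 (-1.03), Myl3 (-0.75), Mybpc3 (-0.53) and Ttn. Actc1, cardiac actin, is listed at 0 in control and at 9189 FPKM in csMed1-/- heart and could not be compared. An exact 0 in such a file can be a failed estimate and is not read here as absence of the transcript. Myh6 stands on a row joined with Myh7, which is also listed at 0 in control and at 646.9 FPKM in csMed1-/- heart, and its own level was not analysed here. Of 6 fibroblast markers, 4 were higher, of which 3 exceeded 2-fold (median 1.19, from Dcn at -0.24 to Postn at 4.13, with Pdgfra at -0.02, or 0.05 after centring on the median of all genes), and their sum was 484.3 FPKM in control heart and 1164 FPKM in csMed1-/- heart. All 5 endothelial markers were lower, 2 by more than 2-fold (median -0.67, from Tek at -1.90 to Pecam1 at -0.25), with sums of 363.1 and 244.5 FPKM. Of 5 macrophage markers 4 were compared, with 2 lower and 2 higher (median 0.18, from Emr1 at -0.91 to Cd14 at 1.29) and sums of 47.9 and 62.1 FPKM. Of 4 smooth muscle markers 2 were lower and 2 higher (median 0.51, from Myh11 at -1.04 to Cnn1 at 7.17), with sums of 604.5 and 1024 FPKM. In control and csMed1-/- heart, Cnn1 was at 4.32 and 622.4 FPKM and Tagln at 23.8 and 89.7 FPKM. Acta2 was at 572.6 and 310.0 FPKM and Myh11 at 3.68 and 1.79 FPKM. The part of these shifts in the coenzyme Q ratios was not tested.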

How the data were processed

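Heart RNA of 5 Med1fl/fl and 5 csMed1-/- mice was pooled by genotype. Polyadenylated RNA was sequenced as 1 directional library of 50-base single-end reads for each genotype. Per the study's methods alignment to mm10 used TopHat 2.0.8b, and the authors derived the deposited FPKM of UCSC genes with Cufflinks 2.1.1. The labels also name STAR 2.4.0h, with no role, Bowtie2 and DESeq2, none of which the study's methods mention. Library scaling is not given in the sources used here.

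The deposited FPKM were summed over rows that share a symbol (412 symbols). Ratios are plain csMed1-/- over Med1fl/fl values with no pseudocount, for genes with no value of 0 and a larger value of at least 1 FPKM. The 2-fold threshold is the one the study states for its gene list. The study also ran cuffdiff with a false discovery rate cutoff of 0.05. That cutoff was not applied here, so counts here cannot be set against the study's. With 1 library per genotype no test was made. Read depth is unknown, so no counting interval is given. Positions, transcripts and 50-base words came from GENCODE M21 (20448 of 22882 symbols matched), and promoters from RefSeq. Named genes are the 10 genes, all other listed pathway and related genes, the ends of each other list, the cardiomyocyte and smooth muscle markers, and Med1. Neighbouring genes, promoter motifs and the pairs compared within a library were chosen after values were seen. Members and lists were chosen with earlier results of these data known. The computation was run on simulated data with large planted changes, which checks the code only and says nothing of variation between pools. Python 3.11.15, numpy 2.4.6, pandas 2.3.3 and matplotlib 3.10.9 were used.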

Additional observations from a re-analysis of the deposited data

How the results depend on the processing

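The count of 6 coenzyme Q genes lower by more than 2-fold was unchanged with pseudocounts of 0.1 and 1 FPKM, with every gene above 0 in both libraries kept, with 3 other scalings, with the highest row of each symbol, and with ratios centred within bins of transcript length, GC content or mean level (the last 3 were chosen after seeing the data). It was 5 of 9 genes at 1 FPKM in both libraries (14.7% of all genes compared at that setting), 5 of 8 at 10 FPKM in at least 1 library (16.3%), 8 of 10 at a threshold of 1.5-fold (29.7%) and 2 of 10 at 4-fold (5.14%). The number higher by more than 2-fold was 0 under each of these settings. The median log2 ratio of the 10 genes lay between -1.55 (centred on mean level) and -1.28 (1 FPKM in both libraries, which drops Pdss1). The summed ratio lay between 0.416 and 0.441. A change of more than 1.5 times was set as the limit for a moved value because no replicate spread exists, and of the single genes Pdss1 alone passed it, at a log2 ratio of -1.82 with 1 FPKM added. None of the 10 genes changed direction. Of the 96 listed genes compared, these 10 included, 2 changed sign after centring on the median of all genes (Uqcr10 and Pdgfra), 1 at the 75th percentile scaling (Pdgfra) and 1 with the sum without the 100 highest genes (Aifm2), while 4, 4 and 1 crossed 2-fold, a check added after seeing the data. The other scalings moved all ratios by -0.01 to 0.07 on the log2 scale. The variation between pools cannot be estimated from 1 library per genotype, and low values such as those of Pdss1 rest on few reads of unknown number.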

Other observations

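Across all genes compared, the log2 ratio of csMed1-/- to Med1fl/fl differed with the GC content of the reference transcript. In 10 bins of 947 or 948 genes, the median was lowest, at -0.38, for transcripts of 46.5% to 48.4% GC and highest, at 0.36, above 58.8% GC. In those bins 24.5% and 12.0% of genes were lower by more than 2-fold. Pdss1 (46.0% GC), Coq3 (44.1% GC) and Pdss2 (49.8% GC) lay in bins with a median of -0.33 or -0.32 and Coq6, Coq9 and Coq10a in a bin with a median of 0.19, and after centring their log2 ratios were -2.65, -0.58, -1.42, -0.63, -1.79 and -1.47. The cause was not tested.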
